A study of Malus domestica with 99 samples.

Results

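The comparison described here is the first one after harvest in Golden Delicious apples, between fruit treated with 1-methylcyclopropene (1-MCP) and control fruit at day 1. Transcript entries were kept where the log2 group mean was at least 4 in the control or in the 1-MCP group of that day, which left 31511 of 55627 entries. The study profiled fruit cortex, the flesh of the apple, by RNA sequencing in 3 cultivars (Fuji, Golden Delicious and Granny Smith) from harvest to 2 months later, with 3 libraries per group. The day 1 contrast therefore rests on 6 libraries, 3 of Golden Delicious fruit at day 1 without treatment and 3 of fruit treated with 1-MCP. Treated fruit were held with the gas overnight in a closed container directly after harvest. Whether control fruit were closed in likewise, and how many fruit a library pools, is not given in the labels.

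Ethylene drives ripening in apple. The gas is made from the precursor ACC by ACC oxidase and is sensed by membrane receptors (the ETR and ERS proteins), which hold the pathway shut until ethylene binds them. The signal then passes through CTR1, EIN2 and the EIN3-like factors to the ERF factors and to ripening genes of cell wall breakdown, pigment and aroma. 1-MCP occupies the receptors and so keeps the pathway shut. Some receptor genes are themselves switched on by ethylene, as are genes that detoxify cyanide, a by-product of ethylene synthesis.

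Each value is a group mean on a log2 scale whose floor is -1, so no spread between replicate fruit can be had from the tables, and the day 1 contrast in Golden Delicious has no test. A difference is 1-MCP minus control in log2 units, and an entry is called 2-fold changed where its size is at least 1. Tests used cultivars or days as the repeated unit, so their p-values measure the spread between cultivars or days, not between fruit. Depth per library is unknown. Levels are not corrected for length, so a level is the deposited value of an entry and does not rank genes by abundance.

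The 4 named genes of fruit flesh, PG1, SDH1, ACO1 and MALD1, were above the level required in both groups. All 4 were lower under 1-MCP, with differences from -0.48 to -2.38. PG1, ACO1 and MALD1 differed far more between 1-MCP and control fruit at day 14 (-9.98, -8.98 and -8.51). Genes that vary so with the treatment, as these 3 do, cannot measure the amount of flesh in a sample. SDH1 varied less, with -1.02 at day 1 and -0.94, -0.54 and -0.44 at days 7, 14 and 21. Whether the amount of flesh differed between the groups was not tested. Of 3 phloem genes, 2 were at the level required. The phloem lectin gene pp2-1 had 8.95 in control and 8.70 in 1-MCP fruit, and pp2-3 had 8.50 and 7.92, and their part in the results below was not tested. The tables pair no gene name with a marker of peel or seed. In such bulk samples, fewer cells of a type and less RNA per cell cannot be told apart.

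Most transcripts differed little one day after the treatment. The difference was within 0.5 for 84.4% of the 31511 entries, with a median of -0.002 and an SD over entries of 0.499. A 2-fold difference was found for 1296 entries (4.11%), of which 667 were higher (2.12%) and 629 lower (2.00%) under 1-MCP. The directions were close to even at that size and unequal at larger ones. At least 4-fold differences were seen for 112 higher and 211 lower entries, and at least 16-fold differences for 3 higher and 38 lower entries.

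The share of entries that differed depended on the deposited level. Among entries with a level of at least 10 in either group, 20 of 2122 were 2-fold higher (0.943%) and 50 were 2-fold lower (2.36%). Among entries between 4 and 5, where the differences spread most (SD 0.632), the shares were 4.24% higher and 2.94% lower. Of the 667 higher entries 368 had levels between 4 and 6, against 266 of the 629 lower ones. Just inside the level required, between 4.0 and 4.1, 30 of 462 entries were higher and 11 lower, and just outside, between 3.9 and 4.0, 16 of 432 were higher and 13 lower. Requiring a level of 4 in both groups left 29700 entries, of which 380 were higher and 378 lower.

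**Figure D1:**
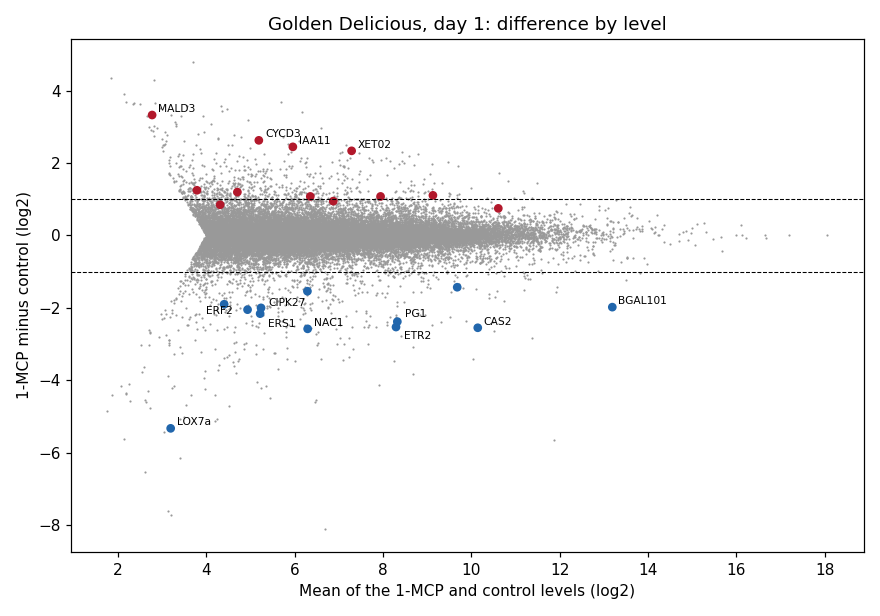
Each grey point is 1 of the 31511 entries, placed by the mean of its control and 1-MCP levels (horizontal, log2) and by the difference 1-MCP minus control at day 1 (vertical, log2), with dashed lines at 2-fold. Coloured points are the 12 lowest (blue) and 12 highest (red) genes with a gene name. Most points lie within 0.5 of zero, and the points far below the lower line reach further (-8.10) than those above the upper line (4.79).

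Gene names were available for 229 of the genes at this level. Of these 15 were 2-fold lower (6.55%), 9 were 2-fold higher (3.93%) and 205 were neither, with a median of -0.02. The 12 lowest and 12 highest of them are described by role below, with the other genes of each group. Over all 31511 entries 2.00% were 2-fold lower and 2.12% higher, and the counts per group below stand beside these shares.

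The ethylene receptors did not move together. ETR2 had 10.57 at harvest, 9.56 in control fruit and 7.03 in 1-MCP fruit at day 1, a difference of -2.53 (5.78-fold lower). ERS1 had 6.12, 6.30 and 4.14 in the same order, 4.47-fold lower under 1-MCP. Both receptor transcripts thus stood lower in treated fruit than at harvest and in control fruit. ETR5 followed at -0.70, while ETR1 differed by 0.31 and ETR1b by 0.28. Downstream, the kinase gene CTR1 differed by -0.14, the membrane protein gene EIN2 by 0.24 and the transcription factor gene EIL3 by -0.05. Of the 8 receptor and signalling genes 2 were 2-fold lower, 0 were higher, and the median was -0.10.

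ACO1 encodes ACC oxidase, the last enzyme of ethylene synthesis. At harvest its level was 13.17 in Golden Delicious fruit, 11.77 in Fuji fruit and 5.67 in Granny Smith fruit. At day 1 control Golden Delicious fruit had 12.84 and 1-MCP fruit 12.28, a 1.47-fold difference that is under the 2-fold rule. It was the 1 ethylene synthesis gene of 3 named in the tables that reached the level required. Both genes of cyanide detoxification were measured. CAS2, a beta-cyanoalanine synthase, had 12.46 at harvest, 11.42 in control and 8.87 in 1-MCP fruit (-2.55), while CAS1, of the same family, had 14.40, 14.22 and 14.23 (0.01).

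Among AP2 and ERF transcription factors, 2 of 9 were 2-fold lower and 0 were higher, with a median of -0.28. ERF2 had 7.00 at harvest, 5.96 in control and 3.91 in 1-MCP fruit, a difference of -2.05. AP2D51 differed by -1.14. ERF1 and AP2D11 differed by only -0.39 and -0.63 in Golden Delicious, and their differences in Granny Smith and Fuji lay close to these, as given below.

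Cell wall genes gave differences in both directions. PG1, a polygalacturonase that cuts pectin and is a known softening gene of apple, had 10.99 at harvest, 9.51 in control and 7.14 in 1-MCP fruit (-2.38). BGAL101, a beta-galactosidase that trims wall galactose, had 13.13, 14.18 and 12.20 (-1.98), so that control fruit stood above the harvest level and 1-MCP fruit below it. XET02 went the other way. This xyloglucan endotransglucosylase gene, of a family that cuts and rejoins wall xyloglucan, had 9.42 at harvest, 6.12 in control fruit and 8.46 in 1-MCP fruit (2.34). Its relative XET01 had 9.47, 4.97 and 4.11 (-0.87), the expansin gene EXP1 differed by -0.64 and the arabinofuranosidase gene AFase1 by -0.18. Of these 6 genes 2 were 2-fold lower and 1 higher, with a median of -0.76.

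The 8 auxin response genes gave 6 positive and 2 negative differences. The Aux/IAA proteins repress auxin responses, and the ARF proteins are transcription factors of these responses. IAA11 had 5.37 at harvest, 4.73 in control and 7.19 in 1-MCP fruit, 5.48-fold higher. ARF1 had 5.40, 5.82 and 6.89 (1.08), and ARF3 had 6.08, 6.40 and 7.35 (0.95). ARF2 and IAA2 differed by 0.70 each and IAA12 by 0.67, while IAA4 differed by -0.57 and AUX/IAA7.1 by -0.99. Of the 8 genes 2 were 2-fold higher and 0 lower, with a median of 0.70 against -0.002 for all entries. PIN10, of the auxin efflux carriers, had 3.20, 3.16 and 4.42 (1.25), and the other 3 genes of auxin transport and binding were within 2-fold.

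Lipid and pigment genes followed. LOX7a, a lipoxygenase, had the largest difference of all genes with a name. It had 7.96 at harvest, 5.86 in control and 0.53 in 1-MCP fruit, a difference of -5.33 that became -3.51 when 4 was added to the linear values, since the treated value is near the floor. Its relative LOX7c went the other way, with 5.84, 4.10 and 5.31 (1.20). LOX5a differed by -0.60 from a level of 13.83 in control fruit, and LOX8b by -0.02. PSY2, phytoene synthase, which makes the first carotenoid, had 10.96, 10.39 and 8.97 (-1.43). ANR2a, an anthocyanidin reductase, differed by -1.16. AFS1, alpha-farnesene synthase of apple aroma, lay under the level required, with 6.25 at harvest, 2.57 in control and 0.00 in 1-MCP fruit.

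Sugar genes were mostly within 2-fold, like the entries as a whole, of which 4.11% were not. Of 14 genes of sugar, sorbitol and starch metabolism, SDH1 alone was 2-fold lower and 0 were higher, with a median of 0.10. SDH1, sorbitol dehydrogenase, turns sorbitol to fructose, and had 11.66 at harvest, 11.67 in control and 10.65 in 1-MCP fruit (-1.02). S6PDH, which makes sorbitol phosphate, differed by 0.63. GABA-T2, a transaminase that breaks down GABA, had 7.72, 7.41 and 8.48 (1.08), and its second entry differed by 1.01.

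Other regulators and stress genes gave single members with a change. NAC1 was the 1 NAC factor of 11 that was 2-fold lower, with 7.96 at harvest, 7.59 in control and 5.0 in 1-MCP fruit (-2.58). MYB7 was the 1 MYB factor of 16, with 5.89, 5.35 and 3.46 (-1.90), followed by MYB30 at -0.90. SCL5, a GRAS family factor, had 7.28, 7.06 and 5.52 (-1.54), and its other entries differed by -1.64 and -1.34. CIPK27, a kinase of calcium signalling, had 6.93, 6.24 and 4.24 (-2.0), and the other 5 CIPK genes were within 2-fold. None of the 9 MADS, 6 WRKY, 7 TCP, 7 homeobox and 8 bZIP factors reached 2-fold in either direction. With 2.12% of all entries 2-fold higher and 2.00% lower, lists of this size are due few or no such members.

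On the higher side, CYCD3, a D-type cyclin of the cell cycle, had 3.97 at harvest, 3.88 in control and 6.50 in 1-MCP fruit (2.63). A dehydrin, a protein of drying and cold stress, had 9.70, 8.58 and 9.68 (1.11), so treated fruit were at the harvest level. MALD3, a lipid transfer protein and fruit allergen, had 1.72, 1.11 and 4.44 (3.33, or 2.06 with 4 added). SnRK2.8, a kinase of osmotic stress signalling, differed by 0.85 and the homeobox gene HD21 by 0.75.

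**Figure D2:**
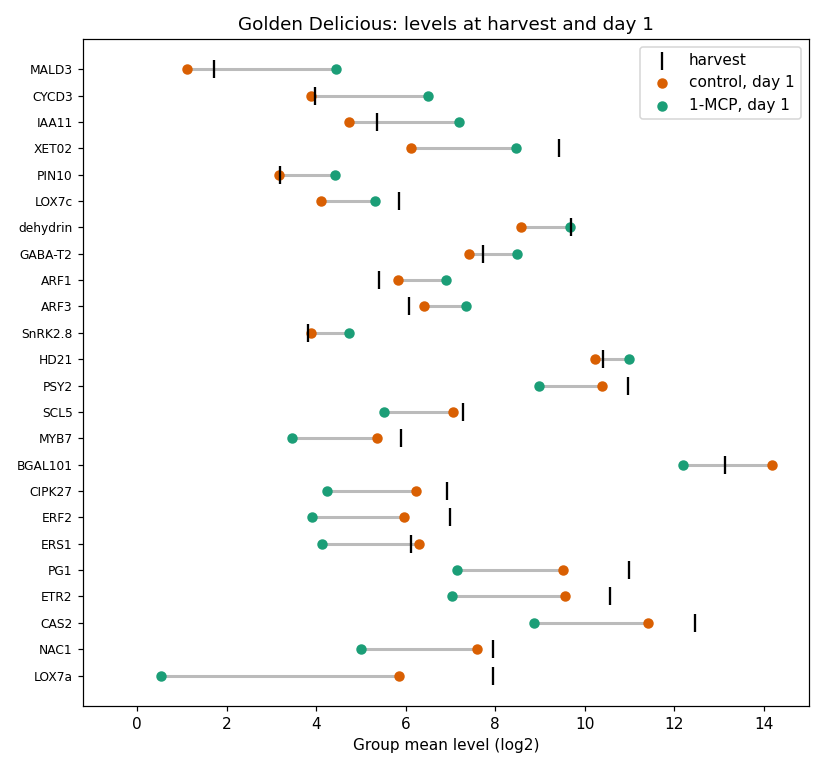
Group mean levels (log2) in Golden Delicious at harvest (black bar), in control fruit at day 1 (orange) and in 1-MCP fruit at day 1 (green) for the 12 lowest and 12 highest genes with a name, ordered by the day 1 difference. LOX7a (0.53) is the 1-MCP value nearest the floor of -1. XET02, LOX7c and the dehydrin are among the genes whose control level (6.12, 4.10 and 8.58) is under both the harvest and the 1-MCP level.

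Genes with a locus number and no name gave larger differences, and the 4 given here were chosen after their values were seen. LOC103433645 had 10.43 at harvest, 10.73 in control and 2.64 in 1-MCP fruit, a difference of -8.10, the lowest of all entries. LOC103425939 had 14.20, 14.71 and 9.05 (-5.65, 50.4-fold lower). LOC103450600 differed by -7.72, down to -0.67 in 1-MCP fruit, near the floor. LOC103442511 had the highest difference, 4.79, with 3.27, 1.30 and 6.10. Of 1704 genes with several entries, 27 had an entry 2-fold lower. Every entry was below zero in all 27, and every entry was 2-fold lower in 16. An entry 2-fold higher was found in 17 genes, with every entry above zero in all 17 and every entry 2-fold higher in 6. Entries of a gene were measured in the same libraries, so their agreement is no independent repeat.

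The later days of Golden Delicious are separate libraries with their own controls. Of the 629 entries lower at day 1, 537 were 2-fold lower at day 7 (85.4%), 484 at day 14 (76.9%) and 404 at day 21 (64.2%). Over all 31511 entries the shares 2-fold lower were 7.52%, 7.16% and 5.09%. All 3 later days showed it for 388 of the 629 (61.7%), against 3.75% of all entries. Of the 667 entries higher at day 1, 436 were 2-fold higher at day 7 (65.4%), 413 at day 14 (61.9%) and 387 at day 21 (58%), against 10.1%, 10.5% and 8.72% of all entries. All 3 later days showed it for 336 (50.4%), against 5.98%. The opposite direction on all 3 later days was found for 1 of the lower entries (0.159%, against 5.98% of all entries). Among the higher entries it was found for 36 (5.4%, against 3.75% of all entries).

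The size of the later difference was tested against day 1 with limma, with the spread between days 7, 14 and 21. After Benjamini-Hochberg adjustment 957 of 39769 entries passed an adjusted p of 0.05 (2.41%), with 523 more positive (1.32%) and 434 more negative (1.09%) than at day 1. The test uses the same day 1 value by which entries were called 2-fold changed, so a return toward zero is favoured by that choice, and no counts are given for the entries chosen by it. Without day 14 only 34 entries passed in all, and without the trend and robust options or the filter 0 did.

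CAS2 was among the genes whose difference grew. It went from -2.55 at day 1 to -6.03, -6.40 and -5.68, a change of -3.49 (limma adjusted p = 0.0145). XET02 went from 2.34 to 4.09, 4.34 and 3.99, a change of 1.80 (limma adjusted p = 0.0217). Without day 14 neither passed (limma adjusted p = 0.065 and 0.121). PG1 went from -2.38 to -7.70, -9.98 and -6.03, and its spread between days left it short of the threshold (limma adjusted p = 0.229).

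ACO1 had differences of -4.23, -8.98 and -5.61 after -0.56 at day 1 (limma adjusted p = 0.282). Its control level went from 12.84 at day 1 to 15.30 at day 7, while 1-MCP fruit had 12.28 and 11.07. The allergen gene MALD1, of the PR-10 family, differed by -0.48 at day 1 and by -5.84, -8.51 and -5.0 later (limma adjusted p = 0.189).

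Some day 1 differences were nearer zero or of the other sign on some or all later days. The dehydrin changed from 1.11 to -3.29, -4.12 and -2.22 (limma adjusted p = 0.104). MALD3 had -0.77, 0.53 and -0.33 after 3.33, with levels of at most 1.97 in either group. BGAL101 differed by -1.98 at day 1, -2.37 at day 7, -0.79 at day 14 and -0.48 at day 21, and ETR2 by -2.53, -3.33, -2.52 and -1.29. Both were further from zero at day 7 and nearer at day 21, and neither passed the test against day 1 (limma adjusted p = 0.682 and 0.947). In BGAL101 the control level came down from 14.18 at day 1 to 12.20 at day 21.

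Other genes differed little at day 1 and strongly later. IAA4 went from -0.57 to 2.76, 3.56 and 3.02 (limma adjusted p = 0.0172). The sorbitol transporter gene MdSOT3 went from -0.32 to 3.91, 4.59 and 3.77 (limma adjusted p = 0.0145). The homeobox gene HD14 went from -0.01 to 2.57, 2.76 and 2.62 (limma adjusted p = 0.0133). Without day 14 IAA4 still passed (limma adjusted p = 0.0488), and MdSOT3 and HD14 did not (0.065 and 0.0664).

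**Figure D3:**
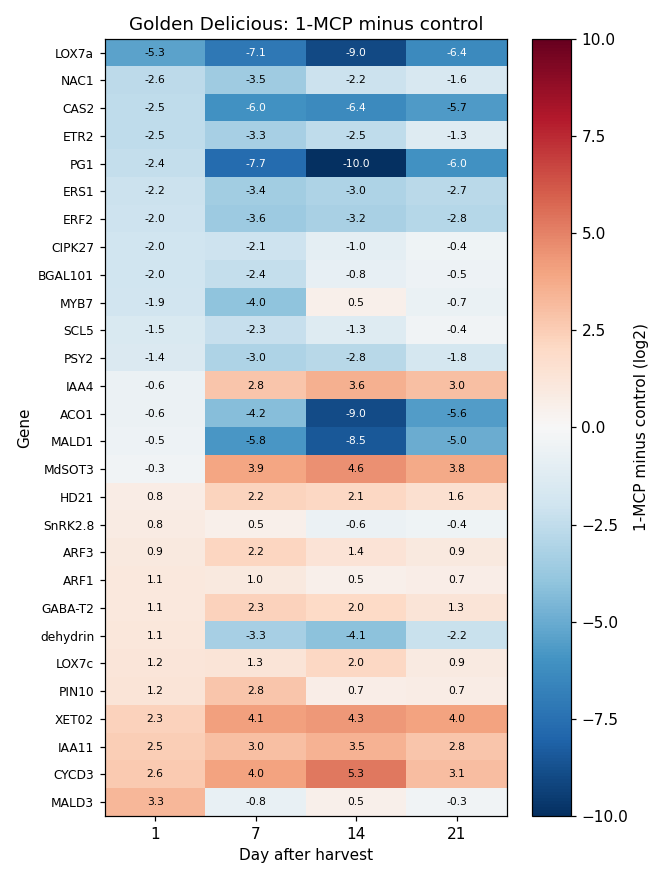
Difference 1-MCP minus control (log2, colour and printed number) in Golden Delicious at day 1, 7, 14 and 21 for the 12 lowest and 12 highest genes at day 1 and for ACO1, MALD1, IAA4 and MdSOT3. PG1, LOX7a, ACO1 and MALD1 reach their lowest values at day 14 (-9.98, -9.01, -8.98 and -8.51), and the dehydrin changes sign after day 1.

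The same day 1 contrast was made in the other cultivars. In Granny Smith 394 of the 629 lower entries were 2-fold lower (62.6%, against 2.59% of all entries) and 7 were 2-fold higher (1.11%, against 2.20%). Of the 667 higher entries 262 were 2-fold higher there (39.3%, against 2.20%) and 21 lower (3.15%, against 2.59%). Fuji values existed for 15635 of the entries. In Fuji 166 of 309 lower entries were lower (53.7%, against 1.58%) and 111 of 335 higher entries were higher (33.1%, against 1.22%). The lower entries had a median of -1.57 in Golden Delicious, by which they were chosen, -1.37 in Granny Smith and -1.07 in Fuji. The medians of the higher entries were 1.31, 0.80 and 0.67, and the median of all entries was 0.00 in both other cultivars.

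With the 3 cultivars as the unit, limma with Benjamini-Hochberg adjustment called 1799 of 20999 entries (8.57%), 940 higher (4.48%) and 859 lower (4.09%). It called 188 of the 309 lower and 161 of the 334 higher entries in their own direction, and 0 in the opposite one. Since those entries were chosen by their Golden Delicious values, the fit was also made from Granny Smith and Fuji alone, which called 208 entries higher (0.991%) and 283 lower (1.35%). There 125 of the 309 (40.5%) and 71 of the 334 (21.3%) were called in their own direction, and 0 in the opposite one. Without the trend and robust options, or without the filter on low values, 0 entries passed in the 3 cultivars, with 4122 and 5014 entries at an unadjusted p under 0.05.

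The named genes were also ranked by their Golden Delicious values, so the p-value from Granny Smith and Fuji alone is given beside that of the 3 cultivars. BGAL101 was lower in 1-MCP than in control fruit in both fits. Its differences were close to each other, with -1.98 in Golden Delicious, -1.81 for Granny Smith and -1.99 for Fuji (mean -1.93, SE 0.0596, limma adjusted p = 1.13e-05, and 0.0022 without Golden Delicious). PSY2 was lower as well, with -1.43, -1.37 and -1.10 in the same order (limma adjusted p = 0.000144 and 0.00633). So were ETR2 with -2.53, -3.26 and -2.34 (limma adjusted p = 0.00745 and 0.0316) and NAC1 with -2.58, -3.72 and -2.83 (limma adjusted p = 0.0129 and 0.0218). CIPK27 was lower in both fits, with -2.0, -1.06 and -0.89 (limma adjusted p = 0.0272 and 0.028), and no longer passed without Granny Smith (0.0914).

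Smaller differences passed as well where they varied little. AP2D11 was lower in 1-MCP than in control fruit, with -0.63, -0.67 and -0.52 (limma adjusted p = 0.00155, and 0.0248 without Golden Delicious). So was ERF1, with -0.39, -0.63 and -0.46 (limma adjusted p = 0.00512 and 0.0316).

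Among the leading higher genes with Fuji values, no call across the cultivars stood without Golden Delicious. CYCD3 had 2.63, 2.03 and 1.14 (limma adjusted p = 0.00995, and 0.0724 without Golden Delicious). IAA11 had 2.45, 1.53 and 0.80 (limma adjusted p = 0.0307 and 0.0872), and ARF1 had 1.08, 1.51 and 0.52 (limma adjusted p = 0.0255 and 0.133). The differences of the 3 genes were positive in every cultivar. Without Granny Smith CYCD3 and IAA11 did not pass either (limma adjusted p = 0.0537 and 0.133). XET02, the dehydrin and GABA-T2 were not called even with all cultivars (limma adjusted p = 0.56, 0.498 and 0.142). In Granny Smith and Fuji XET02 had 0.18 and -0.03, the dehydrin 0.04 and 0.00, and GABA-T2 0.34 and 0.29. IAA4 was called lower across the cultivars (-0.57, -0.32 and -0.16, limma adjusted p = 0.0413), and the call was lost without Golden Delicious (0.191), without Granny Smith (0.125) and without Fuji (0.071).

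LOX7a was lower in all 3 cultivars, with -5.33, -2.92 and -1.98, and missed the threshold (limma adjusted p = 0.108), which it passed without Golden Delicious (limma adjusted p = 0.0218). Its Granny Smith levels were low, 2.58 in control and -0.33 in 1-MCP fruit, so the floor of -1 limits the size of that difference. LOC103425939 had -5.65, -5.37 and -4.62 and passed without Golden Delicious (limma adjusted p = 0.00733). LOC103433645 had -8.10, -10.07 and -5.93 and did not (limma adjusted p = 0.18).

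Genes without Fuji values were tested in Golden Delicious and Granny Smith alone, a fit added after the data were seen, which includes the Golden Delicious values that ranked the genes. It called 1009 of 41932 entries higher (2.41%) and 974 lower (2.32%). ERS1 was lower in both cultivars, with -2.16 and -2.59 (limma adjusted p = 0.000977), and so was ETR5 with -0.70 and -1.17 (limma adjusted p = 0.0361). CAS2 had -2.55 and -2.30 (limma adjusted p = 5.77e-05), SCL5 had -1.54 and -1.84 (limma adjusted p = 0.000907) and MYB7 had -1.90 and -2.21 (limma adjusted p = 0.0118). These 5 lower genes passed. On the higher side HD21 passed with 0.75 and 0.67 (limma adjusted p = 0.00545) and ARF3 with 0.95 and 0.55 (limma adjusted p = 0.0279). MALD3, PIN10, LOX7c and SnRK2.8 did not (limma adjusted p = 0.0821, 0.108, 0.322 and 0.0856). Of further 2-fold lower genes ANR2a passed (limma adjusted p = 0.0307), with Granny Smith levels of only 1.83 and 0.33. SDH1 and AP2D51 did not pass (limma adjusted p = 0.0755 and 0.254). NAC1, which passed in the fits with Fuji, missed the threshold here (limma adjusted p = 0.0564).

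The pectin gene PG1 and the factor ERF2 did not pass. PG1 had -2.38 and -0.67 (limma adjusted p = 0.4), with a harvest level of 10.99 in Golden Delicious and 2.13 in Granny Smith. ERF2 had -2.05 and -0.64 (limma adjusted p = 0.109), with harvest levels of 7.00 and 2.82.

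**Figure D4:**
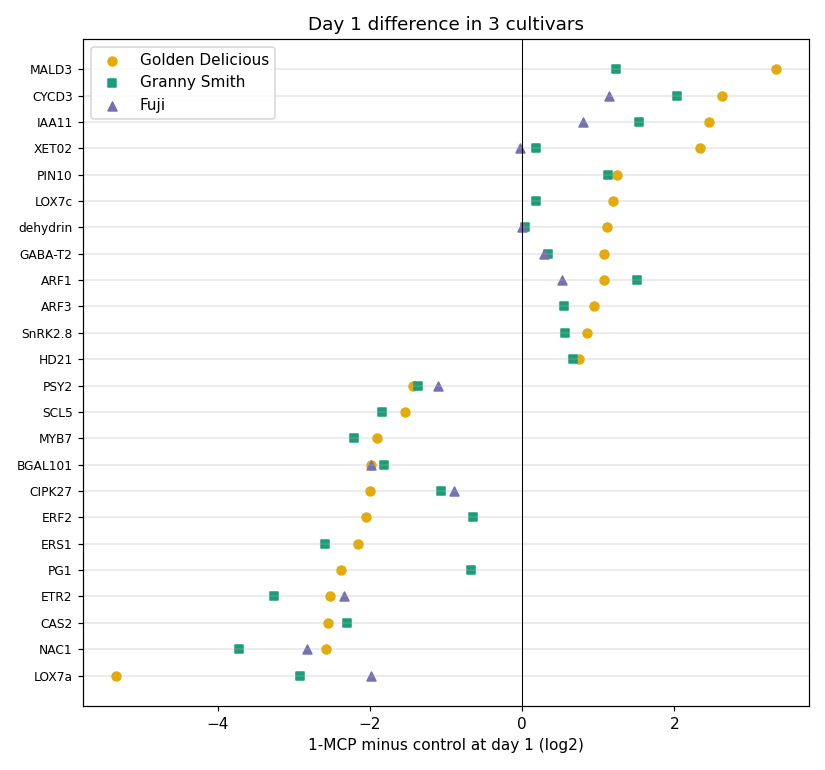
Difference 1-MCP minus control at day 1 (horizontal, log2) in Golden Delicious (circles), Granny Smith (squares) and Fuji (triangles, where the table holds the gene) for the 12 lowest and 12 highest genes with a name in Golden Delicious. The points of BGAL101 and PSY2 lie close together, and those of XET02 lie apart (2.34, 0.18 and -0.03).

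Whether Golden Delicious differed from the other cultivars can be tested only with a single cultivar against the others, so a lack of calls does not show a like response. The limma test was made on the difference itself, with the spread between Granny Smith and Fuji. It called 0 of 20999 entries (0%), with 0 higher and 0 lower, and 1045 entries had an unadjusted p under 0.05, so this test marks no gene as particular to Golden Delicious. XET02 differed from the mean of the others by 2.27 (SE 0.153, limma adjusted p = 0.142), and the dehydrin by 1.09 (SE 0.13, limma adjusted p = 0.406). ACO1 had -0.56 in Golden Delicious and 0.23 and -0.18 in Granny Smith and Fuji, a difference of -0.58 from the others (SE 0.188, limma adjusted p = 0.933).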

How the data were processed

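The submitters' processing notes name STAR 2.5.1a and HTSeq, an aligner and a read counter. The genome build is not given in the sources used here. Libraries were not strand-specific, per the labels' protocols, so overlapping and antisense genes cannot be told apart. The values deposited by the authors are means of log2 values, 1 mean for each group of 3 libraries, under the name FPKM. Low values of both day 1 columns (log2 under 2.5) return to whole numbers for 100% of entries within a tolerance of 0.0003 when 3 libraries are assumed and 0 is entered as 0.5. The medians of the 2 columns are 4.59 and 4.6, and whether the libraries were scaled to each other is not given in the sources used here.

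From these values the day 1 difference was computed in 3 cultivars and the Golden Delicious difference at days 1, 7, 14 and 21. No difference was computed at 2 months. The groups at harvest and at 2 months did enter the filter on low values and the mean level used in the tests. The Fuji table holds 27230 of the 55627 entries. Entries were matched to RefSeq genes of the assembly GDT2T_hap1 for names alone, without the version number (22330, 40.1%). In all 14780 entries of the 31511 matched 12544 genes, and 295 carried a gene name. A gene with several entries was represented by the one with the highest mean at day 1.

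The tests were two-sided in limma 3.58.1 under R 4.3.3, by lmFit and a robust eBayes with a trend on the mean level. They used entries that reached log2 2 in 3 or more columns, with Benjamini-Hochberg adjustment over all entries tested. The fits were also run on simulated normal noise whose spread was taken from the fits themselves. That simulation follows the model of the fits, so it cannot show whether the real differences do. The plan named genes by RefSeq descriptions. The table has none, so the 12 lowest and 12 highest genes with a gene name are given, with list members at least 2-fold different and the ethylene genes. The members and lists were chosen with earlier results of these data known.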

Additional observations from a re-analysis of the deposited data

Results flagged for a closer look

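The genes looked at here were 158 tested genes with a name, drawn from the 12 lowest, the 12 highest and the gene lists. For 12 of the 158 the difference between 1-MCP and control in Golden Delicious at days 7 to 21 was unlike that at day 1. The limma test was of the change itself (mean of days 7, 14 and 21 minus day 1, Benjamini-Hochberg adjusted p under 0.05). Over all entries it called 957 of 39769 (2.41%). The change was positive in 5 genes, MdSOT3 (4.41), IAA4 (3.68), HD14 (2.66), XET02 (1.80) and DAM1 (1.63). It was negative in 7 genes, CAS2 (-3.49), EXP1 (-2.35), HD1 (-1.72), PIN7 (-1.69), CAS1 (-1.47), LAR1 (-1.09) and the sucrose synthase gene SS (-0.90). CAS2 and XET02 were the 2 of them that already differed 2-fold at day 1. Without day 14, 11 of the 12 lost the call, the exception being IAA4.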

How the results depend on the processing

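No paired analysis was possible because each column is the mean of a group, and leaving out single libraries was not run for the same reason. The 1296 entries 2-fold different at day 1 became 2457 at a minimum level of 2, 662 at a minimum of 6, 4122 with no minimum, 323 at 4-fold, 3789 at 1.5-fold and 758 with a level of 4 in both groups (chosen after seeing the data). Adding 4 gave 1030 and centring 1305, and with 4 added PIN10 (0.97) and ANR2a (-0.87) were under 2-fold. Across cultivars, 1799 calls became 0 without the filter or without trend and robust, and 491 to 923 with 1 cultivar left out (491 without Golden Delicious, 923 without Granny Smith, 681 without Fuji). Golden Delicious and Granny Smith alone over all entries of both tables gave 1983 (chosen after seeing the data). For Golden Delicious against the other cultivars, 0 calls became 3 at a minimum level of 4. For days 7 to 21 against day 1, 957 calls became 0 without the filter or without trend and robust, 34 without day 14, 1955 without day 21 and 3728 without day 7, and the cause was not tested. Both fits thus depend on the moderation, and single genes past their thresholds are to be read with that limit.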
